A study of Homo sapiens with 6 samples.

Results

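CD antigens are proteins of the cell surface that were numbered by the antibodies raised against them, and tetraspanins are a family of small membrane proteins, several of which carry such a number. The 41 genes described here were chosen by symbol alone, from 12659 rows of expression values: every symbol made of CD, a number and at most 1 letter, and every symbol made of TSPAN and a number. Of these, 25 carried a CD symbol and 16 a TSPAN symbol. By protein family 21 were tetraspanins (CD9, CD37, CD63, CD81, CD82 and the TSPAN genes) and 20 were not. The set was taken up with the comparison of the lines already known, so counts over its members are given as description and nothing is read from them.

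The cells were NCI-H1650, an established human lung adenocarcinoma line, and NCI-H1650Re, which the labels place after transformation to small cell lung cancer (post-SCLC) where the parent is called pre-LUAD. Neither an agent nor a dose is named for the derivative in the sources used here, and its cell line field repeats the name of the parent. Polyadenylated RNA of 3 libraries per line was sequenced, at an estimated depth of 17.0 to 22.3 M fragments. Whether the 3 came from separate cultures is not said, so p-values measure the spread between these libraries, which may be technical.

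Tetraspanins cross the membrane 4 times in a compact fold and gather integrins, immunoglobulin-family proteins and proteases into shared patches of membrane. CD9, CD63 and CD81 are the usual markers of extracellular vesicles, and CD82 is known as a suppressor of metastasis. Many CD antigens first found on leukocytes are also made by epithelial cells, among them the hyaluronan receptor CD44, the mucin-like CD24, the complement regulators CD46, CD55 and CD59 and the phagocytosis inhibitor CD47.

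Levels are FPKM (fragments per kilobase of transcript and M fragments sequenced); where a mean is printed, the SD over 3 libraries follows it. A log2 change is the derivative line minus the parent on the scale of log2(FPKM + 1), which understates the change of genes at low levels. Changes were fitted with limma over the 11764 genes whose mean reached 1 FPKM in at least 1 of the lines, with Benjamini-Hochberg adjustment over all of them. Fell, rose and changed are written of genes with an adjusted p under 0.05.

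CD24 and CD47, both among the members that fell, encode surface signals that restrain engulfment by macrophages. Their promoters are shown because both windows, 250 bases before the RefSeq start in GRCh38.p14, overlapped no GENCODE exon. The CD24 window lies at chr6:106975628-106975877 and the CD47 window at chr3:108091032-108091281, both on the minus strand. The CD47 window is inside the span GENCODE gives the gene (108043094 to 108091862), in an intron of 1 transcript that starts further upstream. Sequences are written 5′ to 3′, with capitals at each match to GGGCGG (the GC box) or ACGTG (the core of the hypoxia response element) on either strand.
CD24: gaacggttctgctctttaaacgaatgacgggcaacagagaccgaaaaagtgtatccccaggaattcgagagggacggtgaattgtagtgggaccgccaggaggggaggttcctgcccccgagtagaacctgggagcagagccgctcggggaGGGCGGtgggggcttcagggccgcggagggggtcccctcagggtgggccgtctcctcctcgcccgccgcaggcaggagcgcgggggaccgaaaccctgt
CD47: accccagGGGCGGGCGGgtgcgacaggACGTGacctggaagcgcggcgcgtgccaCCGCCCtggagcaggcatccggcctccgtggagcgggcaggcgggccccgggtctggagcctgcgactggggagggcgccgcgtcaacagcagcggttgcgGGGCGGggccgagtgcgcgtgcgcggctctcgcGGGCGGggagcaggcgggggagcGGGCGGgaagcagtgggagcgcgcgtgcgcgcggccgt

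CD24 held 1 GC box and CD47 held 6, the first pair of them overlapping, with 1 hypoxia core. GC content was 65.6% for CD24 and 79.6% for CD47, against a median of 63.4% over the 34 members matched to RefSeq promoters and 58% over 35116 promoters in all. A GC box stood in 20 of those 34 windows (58.8%), against 42.6% of all promoters. The hypoxia core stood in 7 (20.6%, against 18.5%), the E-box CACCTG of ZEB and SNAI factors in 7 (20.6%, against 17.5%), the AP-1 motif TGANTCA in 4 (11.8%, against 6.57%) and the TATA box TATAAA in 2 (5.88%, against 10.7%). The cAMP response element TGACGTCA was found in 0 of 34 and in 1.65% of all promoters. A match says only that these letters occur in the window.

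CD24, CD9, CD82, TSPAN6, TSPAN9 and TSPAN1 fell by 0.65 to 1.26 on the log2 scale, CD44, CD99 and CD59 fell less at high levels, and CD55, an inhibitor of complement activation, was the 1 member that rose. Of 37 members tested, 18 fell (48.6%) and 1 rose (2.7%), while 18 did not pass. Among all genes tested 30.5% changed, 13.9% lower and 16.6% higher. The median log2 change was -0.26 over the tested members and 0.03 over all genes. By sign, 30 of the 37 were negative. Among the members, 3 were in the authors' deposited table as part of the 860 genes they marked, all down: TSPAN1, CD14 and CD24.

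The libraries of the lines did not overlap for 21 tested members lower and 1 higher in NCI-H1650Re; over all genes that held for 21% lower and 26.3% higher. For each of these 22 the exact permutation p (two-sided) was 0.1, the smallest that 3 libraries against 3 allow. CD14, CD163 and CD274 entered the fit only through their level in NCI-H1650. The falls of CD14 and CD163 therefore add nothing to the counts of members that fell, here or below. With no filter on level, all 41 members were tested, and again 18 fell and 1 rose. Closest to the threshold were TSPAN1 (limma adjusted p = 0.0329), CD47 (0.0352) and CD59 (0.0390) on the passing side and CD46 (0.0558), TSPAN14 (0.0879) and TSPAN15 (0.0919) on the other.

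**Figure D1:**
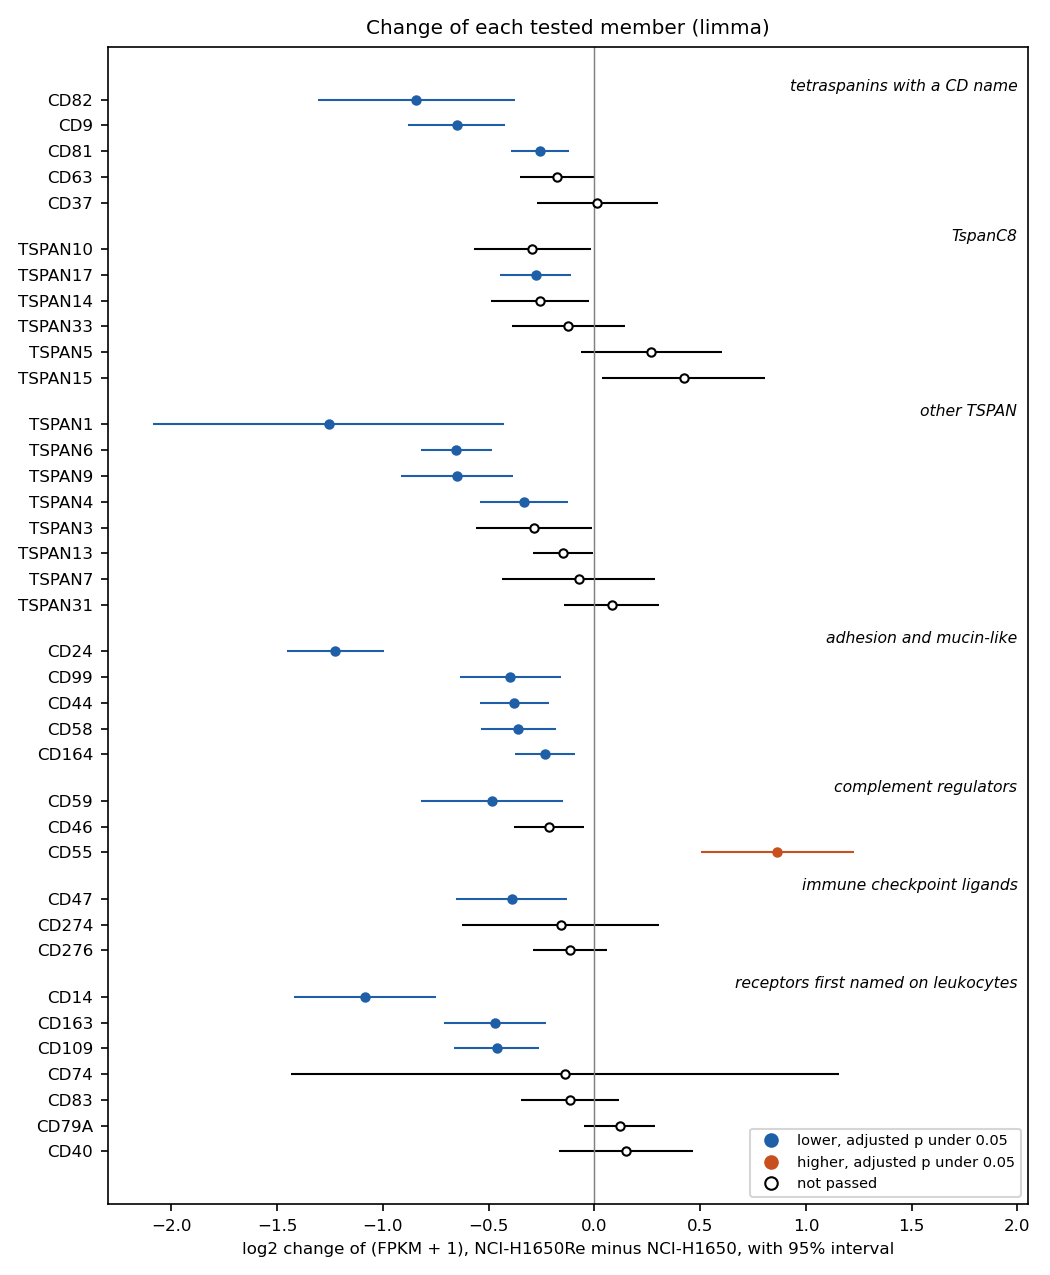
Log2 change of (FPKM + 1), NCI-H1650Re minus NCI-H1650, for the 37 tested members, with the 95% interval from limma as a bar; members are grouped by family or role, and filled points have an adjusted p under 0.05. CD55 is the only filled point to the right of 0, and the 18 members that fell lie between -1.26 and -0.23.

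Replicate 3 stood somewhat apart in both lines. Its log2 values correlated at 0.988 and 0.990 with replicates 1 and 2 of NCI-H1650, against 0.997 between those, and at 0.980 and 0.988 in NCI-H1650Re, against 0.994. Without both replicate 3 libraries 20 of 36 tested members fell and 6 rose, while 43.2% of all genes then changed. Leaving out NCI-H1650 replicate 2 gave 9 falls and 1 rise, and leaving out NCI-H1650Re replicate 2 gave 10 and 1; the share of all genes called was then 15.2% and 16.1%. In all 6 fits that left out 1 library, 10 members passed: CD9, CD14, CD24, CD44, CD58, CD109, CD163, TSPAN6 and TSPAN9, which fell, and CD55, which rose. The other 9 lost the call in at least 1 fit, with CD47 passing in 1 of 6, CD59, CD99, CD164, TSPAN1 and TSPAN4 in 2, TSPAN17 in 3 and CD81 and CD82 in 4.

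The label of the cells was checked on markers of other cell types. Epithelial markers were high in both lines, with 9 of 9 listed. Their summed level was 3707 to 4864 FPKM in NCI-H1650 and 3234 to 3278 in NCI-H1650Re. Of the 9, 5 fell (55.6%, against 13.9% of all genes) and 0 rose. KRT7 and KRT18 had positive log2 changes, 0.35 and 0.13, that did not pass (limma adjusted p = 0.0563 and 0.501). KRT7 was at 800 ± 124 and 1012 ± 77.9 FPKM, with no overlap of the lines. By far the most changed was the keratin KRT19, with means of 754 ± 97.5 and 68.7 ± 41.8 (log2 change -3.59); CDH1 had means of 247 ± 9.16 and 141 ± 23.4, and EPCAM of 148 ± 14.01 and 104 ± 10.4. Of 10 neuroendocrine markers 4 were listed, at a sum of 6.61 to 7.41 and 8.56 to 14.1 FPKM, and 1 of them, CHGA, rose. CHGA reached the filter only in NCI-H1650Re, where it was high, so its rise adds nothing to the count. NEUROD1, INSM1 and NCAM1, markers of the neuroendocrine state, were not among the 4. Of 15 leukocyte markers 3 were listed, CD14, CSF1R and CD79A; their sum of 212 to 242 FPKM was nearly all CD79A. Of 8 fibroblast markers 3 were listed, at a sum of 20.6 to 23.8 and 34.5 to 51.2 FPKM, and COL3A1 rose; of 6 endothelial markers 0 were listed. How rows entered the expression table is not given, so a missing row is not read as lack of expression. The part of these markers in the results below was not tested. In RNA of whole cultures, fewer cells with a transcript and less transcript per cell cannot be told apart.

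Among the 5 tetraspanins with a CD name, 3 fell (60%, against 13.9% of all genes). CD9, which binds integrins and the precursor of heparin-binding EGF-like growth factor, had parental levels of 202, 223 and 219 FPKM (replicates 1, 2 and 3, the order used throughout) and derivative levels of 156, 134 and 122. The lines were well apart, at 215 ± 11.1 and 137 ± 17.4 (log2 change -0.65, SE 0.10, limma adjusted p = 0.00323). CD9 lies on chromosome 12, 6199715 to 6238271 (GRCh38, GENCODE release 29).

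CD82 was at 17.4, 23.6 and 28.5 FPKM in the parental libraries and at 12.1, 9.78 and 15.5 in the derivative. Every parental library was above every derivative one, and replicate 3 was the highest in both lines (log2 change -0.84, SE 0.20, limma adjusted p = 0.0173). CD81, a partner of CD9 in tetraspanin patches, was tighter, at 88.8, 93.0 and 94.1 against 77.4, 77.4 and 75.9. Its fall was smaller, -0.26 on the log2 scale (SE 0.06, limma adjusted p = 0.0158). CD63, the tetraspanin of late endosomes and lysosomes, was at 223, 220 and 199 FPKM and at 202, 183 and 182. Its lines overlapped at NCI-H1650 replicate 3, and the log2 change of -0.18 had a 95% interval from -0.35 to 0.00 (limma adjusted p = 0.116). CD37, a tetraspanin mainly of B cells, was low and even, at 1.59 ± 0.306 and 1.61 ± 0.247. It overlaps TEAD2 on the opposite strand, at 15.5 FPKM, so its own level is uncertain.

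Of the 8 tested TSPAN genes outside the TspanC8 group, 4 fell (50%, against 13.9% of all genes) and 4 did not pass. TSPAN6, on the X chromosome (100627109 to 100639991), was at 9.21, 8.48 and 8.28 FPKM against 5.29, 4.97 and 5.15, with little spread within a line (log2 change -0.65, SE 0.07, limma adjusted p = 0.00101). TSPAN9, which is abundant in platelets, was at 6.66, 7.38 and 5.67 against 4.08, 4.12 and 3.26. It changed by the same -0.65 (SE 0.11, limma adjusted p = 0.00553).

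TSPAN1, a tetraspanin of secretory epithelia, was at 5.25, 5.85 and 12.7 FPKM in NCI-H1650 and 1.58, 2.04 and 4.48 in NCI-H1650Re, from 183 to 348 and 52 to 131 counts. Replicate 3 was far above the others in each line, so the fall of -1.26 had a wide error (SE 0.36, limma adjusted p = 0.0329). Without both replicate 3 libraries the log2 change was -1.22 (limma adjusted p = 0.000262). A protein-coding locus, AL672043.1, lies on the opposite strand across TSPAN1, and without stated strand their reads cannot be told apart; it was at 13.4 and 10.1 FPKM in the parental and derivative lines and did not pass (limma adjusted p = 0.107).

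TSPAN4 was the highest of the TSPAN genes, at 91.3, 98.8 and 83.8 against 68.1, 69.3 and 79.3 FPKM. The lines came close at replicate 3, and the fall was -0.33 (SE 0.09, limma adjusted p = 0.0264). TSPAN3 was at 31.1, 30.9 and 31.0 against 21.8, 24.0 and 30.8. Its derivative replicate 3 was just below the lowest parental library, and it did not pass (limma adjusted p = 0.105); without that library the log2 change was -0.42 (limma adjusted p = 0.00393). TSPAN13 (52.1 ± 1.604 and 46.9 ± 1.36), TSPAN7 and TSPAN31 did not pass. TSPAN31 overlaps CDK4 on the opposite strand, at 63.4 FPKM, so its own level near 5 is uncertain. TSPAN2 and TSPAN18 were under the filter, at means of 0.373 and 0.793 for TSPAN2 and 0.407 and 0.443 for TSPAN18. TSPAN18 overlaps TP53I11 on the opposite strand, at 10.4 FPKM, so its level is uncertain too. In the authors' deposited table TSPAN2 had a log2 fold change of 1.06 and an FDR of 0.0197.

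The TspanC8 tetraspanins, named for 8 cysteines in the large outer loop, carry the protease ADAM10 to the cell surface and differ in the substrates it then cuts. All 6 were listed and tested. Of these, 1 fell (16.7%, near the 13.9% of all genes), 0 rose and 5 did not pass. TSPAN17, at 22.0 ± 0.455 FPKM in the parent, fell to 18.0 ± 1.25 in the derivative (-0.28 on the log2 scale, limma adjusted p = 0.0236). TSPAN15, which directs ADAM10 to N-cadherin, was at 7.37, 8.79 and 12.3 against 13.2, 11.3 and 14.03, and TSPAN5 at 3.48, 4.16 and 3.39 against 5.47, 5.07 and 3.53. Both had positive values, 0.42 and 0.27, and did not pass (limma adjusted p = 0.0919 and 0.188). Without both replicate 3 libraries TSPAN15 (0.54, limma adjusted p = 0.00632) and TSPAN5 (0.38, limma adjusted p = 0.0178) passed. TSPAN14 and TSPAN10 had negative values of -0.26 and -0.29 that did not pass, as did TSPAN33 at -0.12. TSPAN10 overlaps NPLOC4 on the opposite strand, at 34.55 FPKM, so the level of TSPAN10 is uncertain. The summed level of the 6 genes was 46.1 to 53.4 FPKM in NCI-H1650 and 46.2 to 48.1 in NCI-H1650Re.

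The members with roles in adhesion were CD24, CD44, CD58, CD99 and CD164; all 5 passed as lower, where 13.9% of all genes did, and CD99 and CD164 kept the call in 2 of the 6 fits without 1 library. CD24, a small mucin-like protein that is heavily glycosylated and binds P-selectin and Siglec-10, was at 91.4, 94.4 and 85.4 FPKM in NCI-H1650 and 35.0, 35.7 and 44.2 in NCI-H1650Re. That was 2.36-fold lower in the derivative, with a wide gap between the lines (log2 change -1.22, SE 0.10, limma adjusted p = 0.000360). It rested on 3648 to 5126 and 1788 to 2010 counts. CD24 (chromosome 6, 106969831 to 106975627) has near-identical processed pseudogenes, and its value is uncertain to that extent.

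CD44, the hyaluronan receptor, was at 158, 149 and 158 FPKM against 125, 122 and 111. The parental libraries were all higher (log2 change -0.38, SE 0.07, limma adjusted p = 0.00688). Splice forms of CD44 cannot be told apart in gene-level values. CD99, a glycoprotein of cell contacts, was at 99.7, 107 and 103 against 68.1, 77.8 and 90.2, a fall of -0.40 with a wider spread in the derivative line. CD58, the ligand of CD2 on T cells, fell by 0.36 from 12.9 ± 0.524 FPKM, and CD164, a sialomucin, by 0.23 from 33.4 ± 0.944. The authors' FDR was 0.051 for CD58 and 0.0542 for CD164, and under 0.05 for CD24, CD44 and CD99.

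Of the 3 membrane-bound complement regulators 1 rose, 1 fell and 1 did not pass, where 16.6% of all genes rose and 13.9% fell. CD55, which speeds the decay of the C3 convertases, was at 18.9, 16.8 and 24.2 FPKM in NCI-H1650 and 30.4, 38.8 and 42.1 in NCI-H1650Re. That was 1.86-fold higher, with the lowest derivative library above the highest parental one (log2 change 0.87, SE 0.16, limma adjusted p = 0.00617). CD59, which blocks the membrane attack complex, was at 78.1, 76.2 and 66.3 against 41.6, 54.7 and 62.4, close to overlap at replicate 3. It fell by 0.48 on the log2 scale (SE 0.14, limma adjusted p = 0.0390). CD46, a cofactor for the cleavage of C3b and C4b, was at 52.6, 50.8 and 47.6 against 40.8, 43.9 and 45.1 and did not pass, at -0.21 (limma adjusted p = 0.0558). Under other scalings it passed: median-of-ratios gave -0.24 (limma adjusted p = 0.0389) and quantile normalization -0.25 (0.0326). CD55 and CD46 both lie on chromosome 1, at 207321376 to 207386804 and 207752057 to 207795513, with 365253 bases between them.

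Of the 3 ligands that hold back immune cells, 1 fell, where 13.9% of all genes did. CD47, which signals to SIRP-alpha on macrophages, was at 13.2, 12.8 and 15.4 FPKM against 9.55, 9.31 and 12.1. It fell by 0.39 (SE 0.11, limma adjusted p = 0.0352), the least stable of the calls. CD276, which encodes B7-H3, was at 63.5, 61.6 and 63.5 against 62.6, 58.4 and 53.1, and its log2 change of -0.12 had a 95% interval from -0.29 to 0.06. CD274, encoding PD-L1, was near 1 FPKM in every library: 0.96, 0.85 and 1.76 against 0.55, 0.99 and 1.33. The lines overlapped, and the interval from -0.62 to 0.31 left a change in either direction possible at this depth.

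**Figure D2:**
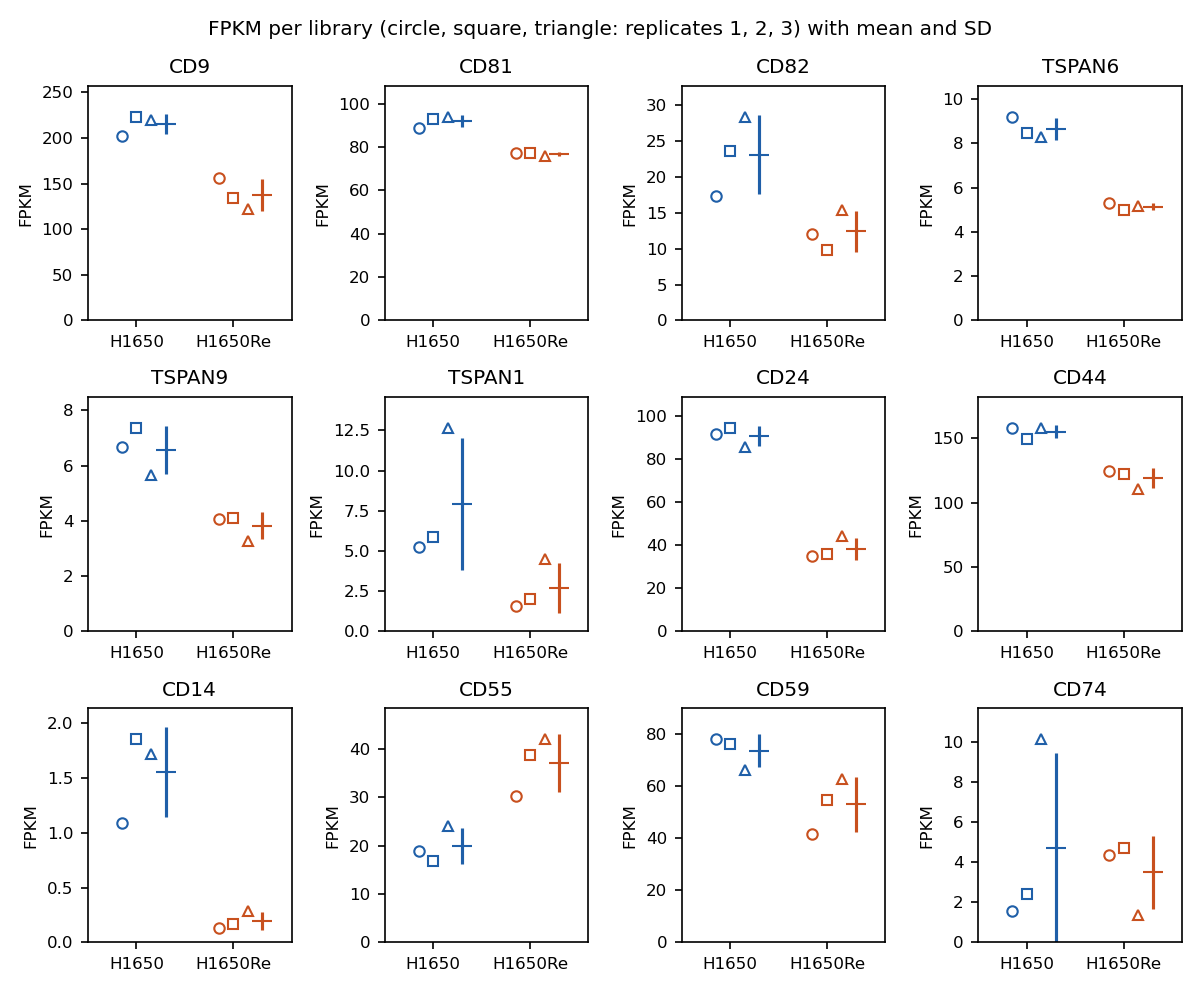
FPKM of 12 members in each library of NCI-H1650 and NCI-H1650Re, with the mean as a horizontal mark and the SD as a vertical bar (n = 3 per line; axes start at 0). CD9, CD81, CD82, TSPAN6, TSPAN9, TSPAN1, CD24, CD44, CD14 and CD59 are lower in NCI-H1650Re with no overlap of the lines. CD55 is higher in NCI-H1650Re, also with no overlap. In TSPAN1 and CD82 replicate 3 is the highest of each line, while CD74 is spread across both lines.

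Of the 7 tested receptors first named on leukocytes, 3 fell (42.9%, against 13.9% of all genes) and 4 did not pass. CD14 and CD163 reached the filter only through NCI-H1650, the line where they were high, so their falls add nothing to the count. CD14, the co-receptor for bacterial lipopolysaccharide, was low, at 1.09, 1.86 and 1.72 FPKM in NCI-H1650 and 0.13, 0.17 and 0.29 in NCI-H1650Re. Counts were 46 to 68 and 5 to 10, so the mean ratio of 7.92 rests on few fragments in the derivative (log2 change -1.08, SE 0.14, limma adjusted p = 0.00199). CD163, a scavenger receptor of macrophages, was also low and fell from 1.74 ± 0.255 to 0.970 ± 0.0625. CD109, a GPI-anchored protein of the alpha-2-macroglobulin family that binds TGF-beta, fell by 0.46 on the log2 scale, with means of 10.4 ± 0.657 and 7.25 ± 0.654 (SE 0.09, limma adjusted p = 0.00695).

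CD74, the invariant chain of MHC class II, was at 1.56, 2.42 and 10.2 FPKM in NCI-H1650 and 4.39, 4.72 and 1.38 in NCI-H1650Re. Replicate 3 was the highest of one line and the lowest of the other, and the log2 change of -0.14 did not pass (limma adjusted p = 0.867). Its sign turned without both replicate 3 libraries, to 0.91 (limma adjusted p = 0.00217). CD40, a receptor of the TNF receptor family, was at 9.91 ± 1.20 and 11.2 ± 2.06 FPKM and did not pass; without both replicate 3 libraries its log2 change was 0.37 (limma adjusted p = 0.0177). CD83 did not pass, and CD36 and CD226 were under the filter.

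CD79A, the signalling chain of the B cell receptor, had the highest mean over the 6 libraries of all 41 members, though in NCI-H1650 alone CD9 and CD63 had higher means. It was at 203, 205 and 207 FPKM in NCI-H1650 and 230, 236 and 204 in NCI-H1650Re. It did not pass (log2 change 0.12, limma adjusted p = 0.244); without both replicate 3 libraries the change was 0.19 (limma adjusted p = 0.0463). Neither its partner CD79B nor MS4A1 or PTPRC had a row in the expression table used here. CD79A lies on chromosome 19, 41877120 to 41881372, and 4194 bases before it on the same strand ends RPS19, a ribosomal protein gene that is not analysed here. Where the fragments counted for CD79A came from was not tested.

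**Figure D3:**
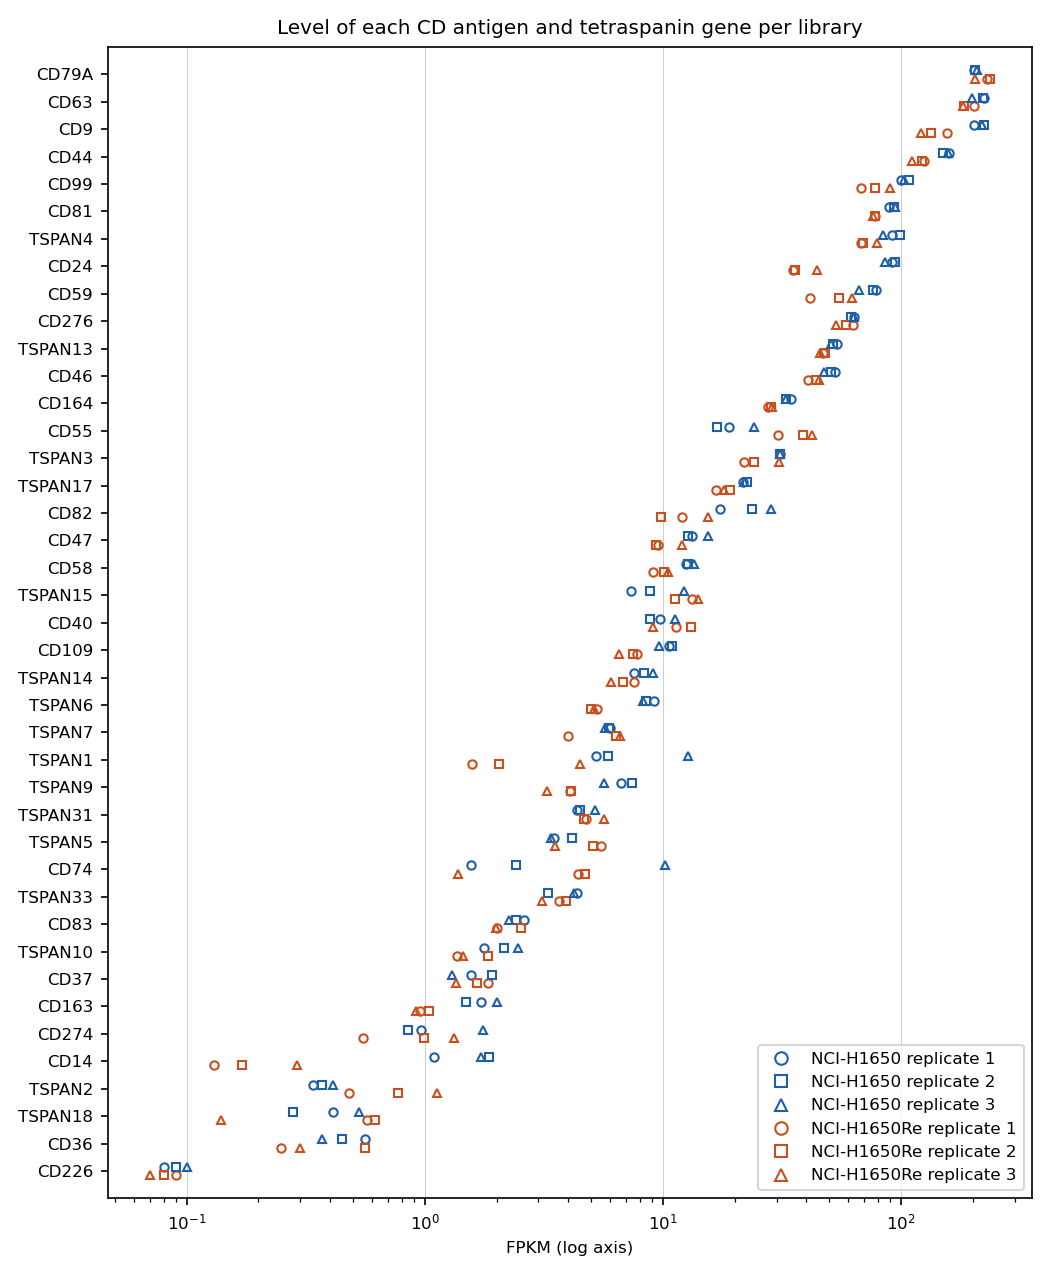
FPKM on a log axis of all 41 members in the 6 libraries, ordered by mean; colours give the line and shapes the replicate. Levels ran from a mean of 0.085 for CD226 to 214 for CD79A, and the 4 lowest members, CD226, CD36, TSPAN18 and TSPAN2, were under the filter.

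Falls were counted at high and at lower levels. Of 10 members with a mean of at least 50 FPKM, 7 fell and 0 rose, where 16% of the 1173 genes at such levels fell and 16.1% rose. Of the 27 tested members under 50 FPKM, 11 fell and 1 rose, where 13.7% of all genes at these levels fell and 16.6% rose. Tetraspanins had 8 falls (42.1%) and 0 rises among 19 tested, with a median log2 change of -0.26. The other CD antigens had 10 falls (55.6%) and 1 rise (5.56%) among 18, with a median of -0.30. Over all genes tested, 13.9% fell and 16.6% rose, with a median of 0.03. The difference between the families was not tested.

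The genes lay on 16 chromosomes. On chromosome 11 all 5 tested members fell, namely CD44, CD59, CD81, CD82 and TSPAN4, where 11.7% of the 633 genes tested on that chromosome fell. On chromosome 12 CD9, TSPAN9 and CD163 fell and CD63 and TSPAN31 did not pass, with 9.88% of 577 genes lower. Each member was then set beside the 10 nearest tested genes on either side, other members left out, a comparison chosen after the data were seen. The members that fell were chosen by their own change, so their place below the neighbours is description only. The neighbours' median was positive for 12 of the 18 and negative for 6. For CD9 it was 0.15 over 19 neighbours, for CD82 0.17 over 20 and for CD24 0.11 over 19. CD14, on chromosome 5 at 140631728 to 140633701, lay among genes that were lower too: 13 of its 20 neighbours fell, with a median of -0.34. TSPAN17, which fell and is also on chromosome 5, had 6 of 20 neighbours lower and 0 higher, with a median of -0.16. Of the 502 genes tested on that chromosome, 34.1% fell. For CD55, at 0.87, the median of the neighbours was -0.03.

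**Figure D4:**
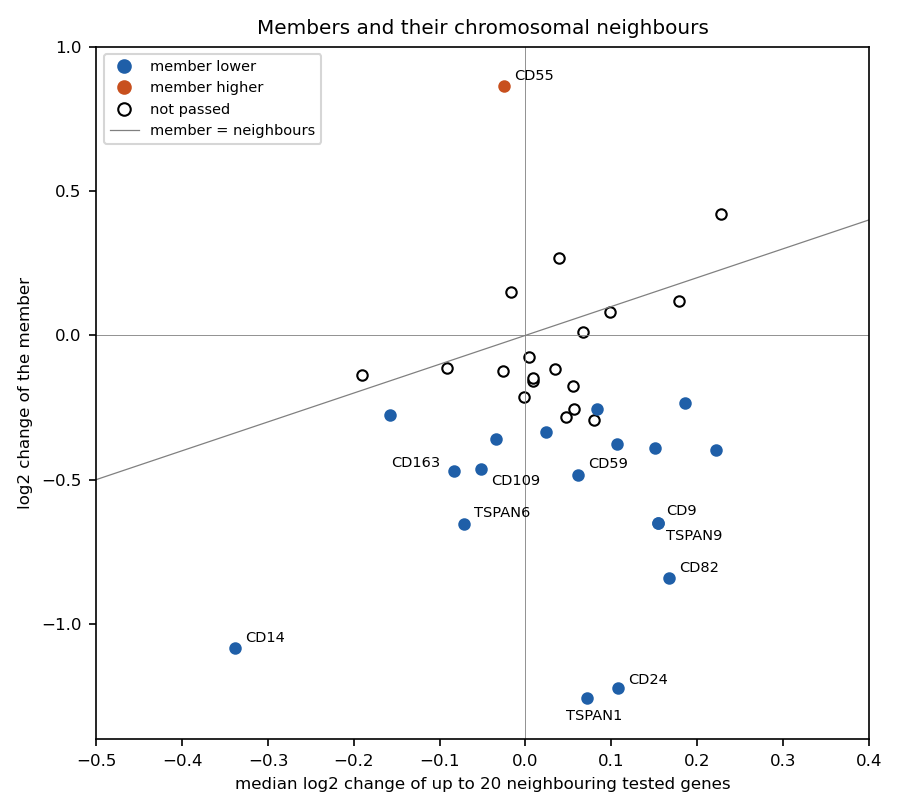
Log2 change of each tested member (vertical) against the median log2 change of up to 20 neighbouring tested genes (horizontal), with the line of equal values. CD9, TSPAN9, CD82, CD24 and TSPAN1 lie far below the line beside neighbours with positive medians, CD14 has the lowest neighbour median, -0.34, and CD55 lies above the line.

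Of 21 integrins, proteases and other partners or cargo of the tetraspanins, 5 fell (23.8%) and 4 rose (19%). Among all genes 13.9% fell and 16.6% rose. The median log2 change of the 21 was -0.03. ITGA6 and ITGA3, the laminin-binding integrin chains that associate with tetraspanins, fell from 203 ± 18.8 to 106 ± 13.6 FPKM (limma adjusted p = 0.00124) and from 230 ± 19.6 to 154 ± 16.8 (0.00522). ITGB6 fell from 2.49 ± 0.503 to 0.273 ± 0.275. It reached the filter only in NCI-H1650, where it was high, so its fall adds nothing to the count. ITGA2, a collagen-binding chain, rose from 9.75 ± 1.39 to 14.3 ± 0.683 and MMP14, a membrane protease, from 7.31 ± 0.264 to 12.8 ± 1.80. HBEGF, the growth factor precursor that CD9 binds, rose from 2.76 ± 1.24 to 6.57 ± 2.70. Its lines overlapped, and it passed close to the threshold (limma adjusted p = 0.0475). The 2 listed tetraspanins with other symbols, UPK1A and ROM1, were near 1 FPKM and did not pass.

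Of 16 genes for vesicle and lysosome traffic, 4 of them members, 6 fell (37.5%) and 2 rose (12.5%), with a median of -0.18. Among all genes 13.9% fell and 16.6% rose. The members CD9, CD81 and CD82, described above, are among the 6 falls. RAB27B, a small GTPase of vesicle docking, fell from 2.43 ± 0.0954 to 0.980 ± 0.191 FPKM (limma adjusted p = 0.00180). It reached the filter only in the parent, where it was high, so its fall adds nothing to the count. VPS4A, the ATPase that takes ESCRT filaments apart, fell from 26.5 ± 0.643 to 17.7 ± 1.09, while STAM rose from 16.7 ± 1.46 to 24.8 ± 1.88 and RAB35 from 20.9 ± 0.442 to 27.6 ± 0.982.

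Of 10 tested genes for CD44 and hyaluronan, 3 fell and 1 rose, 30% and 10% against 13.9% and 16.6% of all genes (median -0.16). CD44 itself is 1 of the 3 falls, beside HAS3 and ESRP2. HAS3, a hyaluronan synthase, fell from 18.2 ± 0.709 to 4.83 ± 0.913 FPKM (log2 change -1.73, limma adjusted p = 0.000214). ESRP2, a splicing factor that favours the epithelial forms of CD44, fell from 17.4 ± 2.78 to 10.3 ± 0.958. ESRP1, the other ESRP gene listed, was more abundant, at 40.5 ± 1.675 and 37.7 ± 3.19, and did not pass (limma adjusted p = 0.349). Only members were set beside their chromosomal neighbours. Whether falls in this and the other lists, such as HAS3, ESRP2, VPS4A and CDH1, share a chromosomal region was not tested.

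Among 12 checkpoint ligands and phagocytosis signals, 4 fell (33.3%) and 1 rose (8.33%), against 13.9% and 16.6% of all genes (median -0.13). VTCN1, which encodes B7-H4, fell from 18.5 ± 2.15 to 6.53 ± 2.61 FPKM. NECTIN2, a ligand of TIGIT, rose from 28.0 ± 3.11 to 46.2 ± 3.50. CD24, CD47 and CD58 were the other falls. Of 8 tested complement genes 3 rose (37.5%), namely CD55, C1S and VTN, and 1, CD59, fell (12.5%), with a median of -0.04. C1S, a classical pathway protease, was at 11.3 ± 0.247 and 15.6 ± 1.18 FPKM. VTN, a terminal pathway inhibitor, was at 0.103 ± 0.0851 and 1.78 ± 0.647; it reached the filter only through NCI-H1650Re, the line where it was high, so its rise adds nothing to the count.

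CD antigens that go by other gene symbols showed no lean to one side by count. Of 39 tested, 8 rose (20.5%) and 9 fell (23.1%), with a median log2 change of 0.04. Among all genes 16.6% rose and 13.9% fell. SLC3A2 (CD98), the heavy chain of amino acid exchangers, rose from 113 ± 16.1 to 303 ± 8.26 FPKM (log2 change 1.43, limma adjusted p = 0.000227). ANPEP (CD13), an aminopeptidase, rose from 53.4 ± 8.01 to 114 ± 11.5, and NT5E (CD73), which makes adenosine, from 5.65 ± 1.19 to 12.2 ± 1.42. DPP4 (CD26), a peptidase that releases dipeptides from the N terminus of peptides, fell from 21.4 ± 0.968 to 8.23 ± 3.44, and CDH1 and ITGA6 fell as well.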

How the data were processed

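RNA of 3 libraries per line was analysed. The FPKM of each library and gene was computed and deposited by the authors; RSEM, HISAT2, Bowtie2 and DESeq2 are listed in the submitters' processing notes with no versions, beside a mouse build (mm10) although the identifiers are human. Counts were deposited by the authors for the 860 genes they marked. The FDR (an adjusted p-value) and log2 fold change of each gene are the authors', per the file headers.

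From FPKM, log2(FPKM + 1) was fitted in limma 3.58.1 (R 4.3.3) with the line as the only term, a variance trend and Benjamini-Hochberg adjustment at 0.05. Depth came from the ratio of counts to FPKM for 28 to 41 genes with a single transcript. Positions came from GENCODE release 29 for all 41 members, promoters from RefSeq. Figures used matplotlib 3.10.9. The model was tested on simulated data. Alternatives were other pseudocounts, filters and scalings, a replicate block, no variance trend and libraries left out.

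Values in every library were given for members that changed by at least 0.5, the 10 highest and 13 chosen names, of which CD151 is not analysed here; TSPAN3, TSPAN5 and TSPAN15 were added after their values were seen. From each list up to 6 members that changed were named. ESRP1, KRT7 and KRT18, which did not pass, were added beside them. Members, the 8 gene lists, the 5 marker lists and the rule were chosen with earlier results of these data known.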

Additional observations from a re-analysis of the deposited data

How the results depend on the processing

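The count of members changed was 19, and 17 to 21 with other pseudocounts, filters and scalings, no variance trend or a replicate block (18, with 17 lower); those 19 calls were kept under median-of-ratios scaling and quantile normalization. The block turned no direction and ended 1 call, that of CD59 (limma adjusted p = 0.0607); the labels do not say that the numbers pair libraries. The correlation of deviations between same-numbered libraries was 0.17, -0.04 and 0.21 for replicates 1, 2 and 3. Leaving out 1 library gave 10 to 22 members changed, 9 to 20 lower and 1 to 2 higher, and 1785 to 4478 of all genes; the genes from the lists named above that changed numbered 42, and 29 to 50 with 1 library left out. Without both replicate 3 libraries 6 members were higher against 1, and 62 list genes changed. Signs turned for 3 members that did not pass. CD37 (0.01) was at -0.003757 with median-of-ratios scaling and from -0.0699 (NCI-H1650 replicate 3 left out) to 0.0998 with 1 library left out, TSPAN7 from -0.19 to 0.12 (NCI-H1650Re replicate 1 left out) and CD74 from -0.56 to 0.50 (NCI-H1650 replicate 3 left out); CD37 was also at -0.0488 when NCI-H1650Re replicate 1 was left out. CD74 was at 0.27 on leaving out NCI-H1650Re replicate 3 and at 0.91 on leaving out both. The cause was not tested. Fragment depth limits CD14, CD274 and the members under 1 FPKM, and the 3 libraries per line limit every test.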
